A study of Mus musculus with 8 samples.

Results

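Antisense long noncoding RNAs are transcribed from the strand opposite a protein-coding gene, and their exons can face that gene's exons, its introns or its promoter. Such RNAs have been studied as regulators of the sense gene at the same locus, in imprinted regions and in the Hox clusters among others, and many are known only by a clone name. The genes described here were the rows of the deposited table whose class in the GENCODE M21 mouse annotation is antisense and that held 20 or more counts summed over the 8 libraries. Kcnq1ot1 and Airn passed these limits and were left out by name, as were Pvt1, Dleu2 and the Snhg genes. The rule took 531 genes of the 2959 antisense rows and of the 55471 rows in all, and 1518 of the antisense rows had any count. The members were thus chosen by their summed counts, so their total level is not a finding: 58 members held 20 to 24 counts, and 74 antisense genes with 15 to 19 counts lay just outside.

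The libraries came from spinal motor neurons differentiated from murine HBG3 embryonic stem cells, which carry the HB9::GFP reporter, a green fluorescent protein driven by the promoter of a motor neuron gene. The cells were dissociated, plated and harvested 3 days later in medium with BDNF, CNTF, GDNF and a Rhok inhibitor, and no cell sorting is described. Biotinylated 20 nt probes in a set called ODD or a set called EVEN captured Lhx1os, a long noncoding RNA, probes against the LacZ mRNA were the negative control, and Input was RNA without capture. Each of these 4 groups had 2 libraries from 2 independent experiments, all of the same cell line, with no treatment beyond the probes. The question the design poses is which RNAs were enriched over Input in each pull-down. The 3 comparisons with Input share the same Input libraries, and neither genes of 1 locus nor members of the class are replicates of a condition.

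Total counts were 20515501 and 24628435 in Input and between 7632775 and 12563449 in the pull-downs. Lhx1os itself, annotated as a lincRNA and so no member, had 55 and 61 counts in Input, 16 and 28 with the LacZ probes, 2239 and 371 with ODD, and 1767 and 283 with EVEN, for replicates 1 and 2. It rose over Input by 5.37 ± 1.10 (log2, SE) in ODD and 5.06 ± 1.09 in EVEN, with adjusted p of 0.0335 and 0.0446 in edgeR's quasi-likelihood test, while against LacZ its adjusted p was 1.0. Levels of cell type markers differed between the experiments. The summed level of 8 motor neuron markers in Input was 221 CPM (counts scaled to a common library total) in replicate 1 and 667 in replicate 2, that of 5 glial markers 348 and 58.9, and that of 5 progenitor markers 1670 and 1200. Of the motor neuron sums, 44.5 and 319 CPM came from Prph. Of 4 stem cell markers Pou5f1 was at 0 in every library, Zfp42 and Nanog had at most 10 counts in any, and Esrrb stood at 4.78 and 12.4 CPM in Input. In bulk RNA, fewer cells of a type and less RNA per cell cannot be told apart.

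Of the 531 members, 489 overlapped at least 1 protein-coding gene on the opposite strand, and 87 overlapped 2 or more. The sense gene was taken as the opposite-strand coding gene with the largest overlap. By position, 210 members were head-to-head with the sense gene, sharing its start region, 142 lay inside it, 108 were tail-to-tail, 29 spanned it and 42 had no coding gene opposite. Exons faced each other in 392 pairs. The summed exon length of a member ranged from 417 to 52997 bases with a median of 1917, and 126 members had a single exon block. All members together held between 0.13% and 0.147% of the counts of a library, a share that was 0.135% and 0.146% in Input.

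Stretches of the RNAs on which the results turn are shown, taken from GENCODE M21 transcripts on GRCm38, each 120 bases long, 5′ to 3′ along the antisense RNA and outside exons of coding genes. Gm38336, Nespas and D030055H07Rik were called above Input in all 3 pull-downs, C78197, Gm15941 and Gm49685 had the largest fitted gains with ODD and EVEN, and Tug1 was the most abundant member. Capitals mark the 10 bases across an exon junction, 5 on each side, which distinguish the spliced RNA from genomic sequence. The stretches of Gm38336, a gene of 1 exon, and of D030055H07Rik cross no junction.
Gm38336: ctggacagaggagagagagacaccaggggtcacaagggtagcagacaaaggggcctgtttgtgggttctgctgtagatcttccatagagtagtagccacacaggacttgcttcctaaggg
Nespas: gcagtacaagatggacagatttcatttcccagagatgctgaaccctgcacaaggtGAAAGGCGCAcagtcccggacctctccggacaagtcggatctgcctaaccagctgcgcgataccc
D030055H07Rik: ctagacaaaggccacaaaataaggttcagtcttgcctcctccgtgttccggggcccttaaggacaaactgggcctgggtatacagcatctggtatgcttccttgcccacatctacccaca
C78197: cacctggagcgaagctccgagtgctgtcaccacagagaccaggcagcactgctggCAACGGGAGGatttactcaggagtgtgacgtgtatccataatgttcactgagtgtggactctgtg
Gm15941: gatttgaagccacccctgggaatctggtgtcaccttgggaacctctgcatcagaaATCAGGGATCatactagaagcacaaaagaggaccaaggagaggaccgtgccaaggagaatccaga
Gm49685: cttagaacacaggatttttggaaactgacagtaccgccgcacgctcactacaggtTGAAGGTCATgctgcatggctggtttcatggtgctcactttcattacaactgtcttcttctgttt
Tug1: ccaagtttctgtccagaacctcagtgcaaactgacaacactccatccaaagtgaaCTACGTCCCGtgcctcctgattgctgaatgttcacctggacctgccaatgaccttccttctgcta
The Gm38336 stretch lies at chr1:34811558-34811677 on the minus strand and that of D030055H07Rik at chr9:106156108-106156227 on the plus strand. The Nespas stretch joins chr2:174295070-174295129 to chr2:174286338-174286397, and that of C78197 joins chr11:68196030-68196089 to chr11:68195426-68195485, both on the minus strand. The stretch of Gm15941 joins chr15:37432414-37432473 to chr15:37427406-37427465 on the minus strand, and that of Tug1 joins chr11:3646557-3646616 to chr11:3645464-3645523 on the minus strand. That of Gm49685 joins chr15:20968505-20968564 to chr15:20978379-20978438 on the plus strand. GC content of the 7 stretches was between 45.8% and 55.8%.

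Most antisense RNAs were scarce beside their sense gene. Per length, the median member stood at 0.359 FPKM (fragments per kilobase of exon, scaled to depth) in Input, the mean of both libraries, against 7.01 FPKM for the sense genes, and the median member was at 5.36% of its own sense gene. In 70 pairs the antisense RNA was under 1% of the sense FPKM, and in 77 it was above it, among them 27 whose sense gene was listed at 0 in both Input libraries. Tug1, a conserved RNA that is abundant in the nervous system, was the highest member at 45.3 FPKM, above the 35.2 FPKM of Morc2a, a chromatin ATPase gene that it meets head-to-head. Gm16536 inside Bace1, which encodes the beta-secretase of the amyloid precursor, stood at 13.5 FPKM against 14.2 for Bace1. Brip1os stood at 11.3 FPKM against 10.9 for Ints2, a subunit gene of the Integrator complex. The largest totals were thus carried by few RNAs: the median member had 76 counts over all libraries and Tug1 had 38262.

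Reads of a gene and of its antisense partner can be told apart only if counting used the strand. The library kit is stranded, and whether counting used the strand is not stated in any source used here. Among noncoding genes covered in full by exons of an opposite-strand coding gene with more than 1 count per base, 24 of 87 held any count. Over all 87 genes the median was 0 counts and the highest had 77. Counting without the strand would also give such genes few counts if reads shared by overlapping genes were dropped. These values therefore do not show whether counting used the strand.

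Few antisense RNAs were enriched by any probe set. Each of 16524 genes that passed the filter on low counts was tested against Input with edgeR's quasi-likelihood test over all 8 libraries, with p-values adjusted over all of them and a threshold of 0.05. Of the members, 293 passed the filter and 238 did not. Both Input libraries of 167 of the tested members lay above the filter's floor of 0.853 CPM, and the other 126 passed through pull-down libraries, so a gain among these is partly built into the filter. Against Input, 5 of 293 members (1.71%) rose in ODD, where 6.38% of all genes tested rose. In EVEN 4 members (1.37%) rose against 5.28% of all genes, and in LacZ 8 members (2.73%) rose against 6.89%. No member fell in any of the 3 comparisons, where 0.369%, 0.26% and 0.418% of all genes fell. At an unadjusted p under 0.05 stood 32 members with ODD, 30 with EVEN and 47 with LacZ. Over all 16524 genes these numbers were 3012, 3097 and 3105. The share of members called was thus below that of all genes in each pull-down, LacZ included. The share over all genes came mostly from 1 class. Of the 1055, 873 and 1138 genes that rose with ODD, EVEN and LacZ, 785, 655 and 827 were of the provisional TEC class. That class had 1355 tested genes. The share over all genes therefore does not describe genes outside that class, here or where it recurs below without the block. Whether members were called less often than genes outside that class was not tested.

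With the replicate number as a block, which removes the difference between the experiments, more genes passed. Then 25 members (8.53%) rose in ODD, 26 (8.87%) in EVEN and 29 (9.9%) in LacZ, where 12.6%, 13.2% and 12.9% of all genes rose. Under the block 2 members fell with ODD, 1 with EVEN and 1 with LacZ, against 6.78%, 6.78% and 7.27% of all genes. The members that fell were Tug1, in all 3 comparisons, and A730056A06Rik, in ODD. With the block 18 members rose in all 3 pull-downs and 38 in at least 1. No share over all genes is given for these counts, which are a description only. The median gain of the tested members was 0.17 with ODD, 0.07 with EVEN and 0.15 with LacZ (log2), and that of all genes tested was -0.03, -0.00 and -0.05. Over the 167 members with Input above the floor the medians were 0.04, -0.05 and -0.01. The medians of the 240 tested sense genes were -0.12, -0.10 and -0.13.

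The counts without the block rested on every library. Without Input replicate 1 no member was called in any of the 3 comparisons by edgeR, with 27, 17 and 26 members at an unadjusted p under 0.05 in ODD, EVEN and LacZ. EVEN had 0 members when Input replicate 2 or EVEN replicate 1 was left out, and 1 without EVEN replicate 2. LacZ had 0 without LacZ replicate 2. Leaving out any other library gave 2 to 4 members in ODD, 2 or 3 in EVEN and 2 to 4 in LacZ.

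Of the calls, 3 of 5 with ODD, 2 of 4 with EVEN and 5 of 8 with LacZ were of members that had at least 1 Input library below the floor and passed the filter through pull-downs. Nespas, D030055H07Rik and Gm48796 are the called members with both Input libraries above it. Gm38336, which entered through the pull-downs, had the smallest adjusted p of the members in all 3 comparisons. This RNA of 2549 bases in 1 exon lies inside Arhgef4, a guanine nucleotide exchange factor gene, at chr1:34809360-34811908 on the minus strand, and 26.9% of its length faces Arhgef4 exons. Its level was 0.494 and 0.487 CPM in Input (12 and 10 counts), 2.45 and 3.48 CPM in LacZ, 3.14 and 2.79 with ODD, and 2.96 and 2.61 with EVEN. All 6 pull-down libraries lay above both Input libraries, and LacZ overlapped ODD and EVEN. The gain was 2.57 ± 0.35 with ODD, 2.48 ± 0.35 with EVEN and 2.58 ± 0.35 with LacZ (log2, SE), with adjusted p of 0.0079, 0.011 and 0.0072 in edgeR's test. Arhgef4 was between 275.0 and 372 CPM in every library, with a fitted change of 0.05, 0.08 and 0.06. Leaving out 1 library moved the adjusted p of Gm38336 between 0.0158 and 0.102. The calls in all 3 pull-downs were lost without Input replicate 1, that in EVEN also without Input replicate 2 or EVEN replicate 1, and that in LacZ without LacZ replicate 2.

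Nespas is the antisense RNA of the imprinted Gnas locus, expressed from the paternal chromosome. It spans chr2:174281237-174295436 on the minus strand and meets Gnas, the gene of the stimulatory G protein alpha subunit, head-to-head. Its level was 8.41 and 11.8 CPM in Input, 28.5 and 34 with the LacZ probes, 26.4 and 35 with ODD, and 23.4 and 25.3 with EVEN. Every pull-down library was above both Input libraries, and the EVEN libraries were the lowest of the pull-downs. The gain was 1.60 ± 0.25 with ODD, 1.27 ± 0.25 with EVEN and 1.63 ± 0.25 with LacZ, with adjusted p of 0.012, 0.0324 and 0.0103 in edgeR's test. Gnas stood at 828 and 970 CPM in Input and between 699 and 855 CPM in the pull-downs, with a fitted change of -0.26, -0.26 and -0.17 that did not pass. Without Input replicate 1 the Nespas calls were lost in all 3 comparisons, that in ODD was lost without ODD replicate 2, and that in LacZ without LacZ replicate 2. In EVEN only leaving out an ODD library kept the call, and the adjusted p over all these settings ran from 0.0154 to 0.192.

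D030055H07Rik spans Glyctk, the glycerate kinase gene, at chr9:106148687-106160201 on the plus strand, and at 2.73 FPKM in Input it was above Glyctk at 0.495 FPKM. Its level was 13.0 and 15.3 CPM in Input, 28.1 and 27.2 with the LacZ probes, 27.2 and 32.1 with ODD, and 30.9 and 25.2 with EVEN. The pull-downs did not overlap Input and overlapped each other. The gain was 1.06 ± 0.20 with ODD, 0.98 ± 0.20 with EVEN and 0.96 ± 0.20 with LacZ, with adjusted p of 0.023, 0.0355 and 0.0313 in edgeR's test. Glyctk was at 0.957 to 2.66 CPM and did not pass. With 1 library left out, the call in ODD was kept only without an EVEN library and those in EVEN and LacZ in no case, with adjusted p between 0.0403 and 0.218.

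The other 7 called members each passed in 1 or 2 comparisons. Gm44949, inside the zinc finger gene Zfp710, had 0.70 and 0.974 CPM in Input, 1.80 and 2.87 with the LacZ probes, 2.82 and 2.60 with ODD, and 3.55 and 3.50 with EVEN. It rose by 1.69 ± 0.36 in ODD and 2.07 ± 0.36 in EVEN (edgeR adjusted p = 0.0392 and 0.0217), and in LacZ its gain of 1.49 ± 0.37 had an adjusted p of 0.0602. Its values in ODD lay within the range of LacZ and those in EVEN above it, a difference from LacZ that did not pass the test. A430057M04Rik, head-to-head with the methyltransferase-domain gene Comtd1, had 0.165 and 0.341 CPM in Input and 0.899 to 1.44 CPM in the pull-downs, and rose by 2.37 ± 0.49 in ODD (edgeR adjusted p = 0.0357). In the other 2 comparisons its adjusted p was 0.0871 in EVEN and 0.0555 in LacZ.

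The remaining 5 passed against Input only in LacZ, the control probe set, and this does not show that LacZ differed from the other pull-downs. Gm4117, tail-to-tail with the DNA repair gene Xrcc4, rose by 1.77 ± 0.34, and Gm48796, inside the junctional adhesion gene Jam3, by 1.71 ± 0.38. Prox2os, tail-to-tail with the homeobox gene Prox2, rose by 1.74 ± 0.39. Gm37422, tail-to-tail with the lysine methyltransferase gene Smyd2, rose by 2.70 ± 0.62 from 7 and 8 counts in Input to 21 and 21 in LacZ. Gm15802 rose by 3.25 ± 0.71 from 4 and 1 counts in Input to 11 and 10 in LacZ. Their adjusted p in edgeR's test ran from 0.0258 to 0.0483. With 1 library left out, the LacZ call was kept for Gm4117 without LacZ replicate 1, for Gm48796 and Gm37422 without either EVEN library, and otherwise lost, and for Gm44949 the EVEN call was kept without either LacZ or either ODD library and the ODD call in no case. The calls of A430057M04Rik, Prox2os and Gm15802 were lost without any 1 library.

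**Figure D1:**
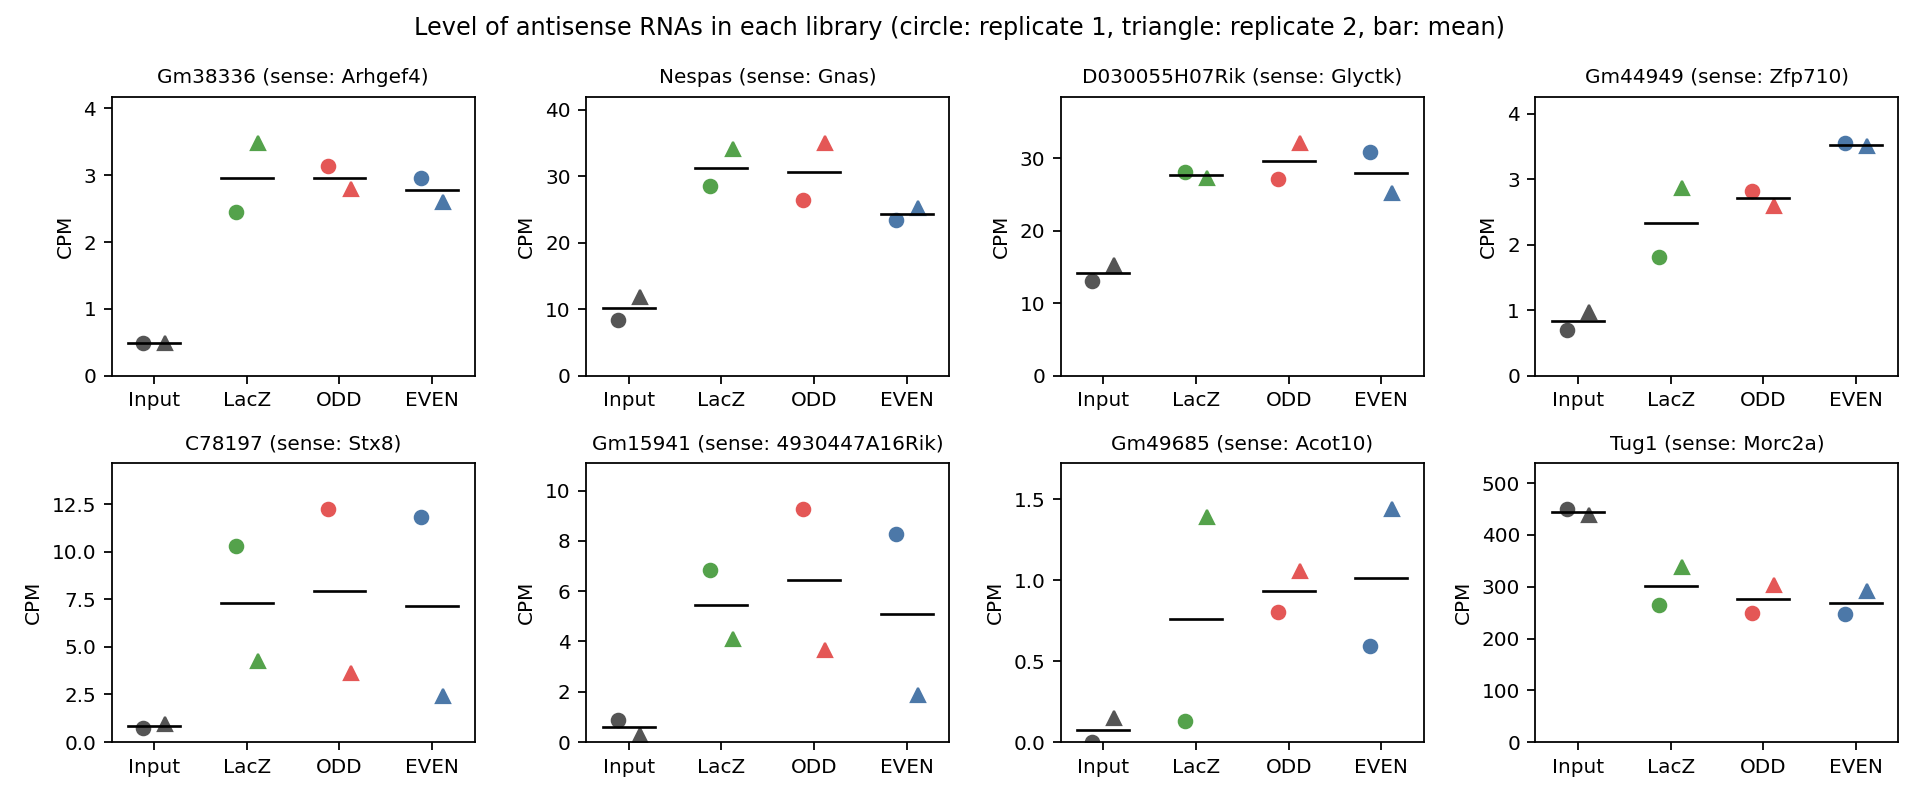
Level in CPM (y axes, each from 0) of 8 antisense RNAs in the Input, LacZ, ODD and EVEN libraries, with 1 point per library (circle, replicate 1; triangle, replicate 2) and the mean as a bar. Gm38336, Nespas, D030055H07Rik and Gm44949 lie above Input in all 6 pull-down libraries, C78197 and Gm15941 differ between the replicates of each pull-down, and Tug1 is lower in all 6 pull-down libraries than in Input.

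The largest fitted gains with ODD and EVEN belonged to 3 RNAs, chosen here after their values were seen, that passed only with the block. With LacZ the gain of Gm15802, at 3.25, lay above those of Gm15941 and C78197. C78197, Gm15941 and Gm49685 each had at least 1 Input library below the filter's floor and passed the filter through pull-down libraries. C78197 lies inside Stx8, a SNARE gene of endosomal membrane fusion, at chr11:68192193-68196153 on the minus strand, with no exon facing an Stx8 exon. Its level was 0.742 and 0.974 CPM in Input, 10.3 and 4.26 with the LacZ probes, 12.2 and 3.65 with ODD, and 11.8 and 2.43 with EVEN. Every pull-down library exceeded both Input libraries, and replicate 1 was the higher in each pull-down. The gain was 3.21 ± 0.94 with ODD, 3.05 ± 0.93 with EVEN and 3.06 ± 0.94 with LacZ, with edgeR adjusted p of 0.111, 0.131 and 0.12, and of 0.00807, 0.0121 and 0.00887 with the block.

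Gm15941, at chr15:37421134-37433414 on the minus strand, also overlaps Ncald, a neuronal calcium sensor gene, on its own strand. It had 21 and 6 counts in Input, 53 and 47 with the LacZ probes, 115 and 38 with ODD, and 98 and 21 with EVEN. The gain was 3.44 ± 0.89 with ODD, 3.10 ± 0.88 with EVEN and 3.18 ± 0.89 with LacZ, with edgeR adjusted p of 0.0748, 0.109 and 0.0914, and of 0.000747, 0.00179 and 0.000962 with the block. Its opposite-strand gene, 4930447A16Rik, was at 0 in every library. Gm49685, at chr15:20449119-20979940 on the plus strand, overlaps the cadherin gene Cdh12 on its own strand and spans Acot10. It had 0 and 3 counts in Input, 1 and 16 with the LacZ probes, 10 and 11 with ODD, and 7 and 16 with EVEN. Its fitted gains of 3.60 ± 1.26, 3.72 ± 1.25 and 3.42 ± 1.29 in ODD, EVEN and LacZ rest on these few counts, with LacZ replicate 1 within the range of Input on the CPM scale. With the block it rose in all 3, with adjusted p of 0.0209, 0.02 and 0.0368 in edgeR's test.

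Tug1 went the other way. It stood at 449 and 439 CPM in Input, 264 and 338 with the LacZ probes, 250 and 303 with ODD, and 247 and 291 with EVEN, so no pull-down library reached Input. The fitted change was -0.68 ± 0.20 with ODD, -0.72 ± 0.20 with EVEN and -0.56 ± 0.20 with LacZ, with adjusted p of 0.109, 0.096 and 0.178 in edgeR's test. With the block it fell in all 3, with adjusted p of 0.00961, 0.00849 and 0.0203. Its sense gene Morc2a was at 231 and 224 CPM in Input and between 226 and 338 CPM in the pull-downs. A730056A06Rik, head-to-head with Rgma, a repulsive guidance molecule gene, had 7.09 and 5.02 CPM in Input and 4.43 and 2.60 CPM in ODD. With the block it fell in ODD, where the change was -0.78 ± 0.41 without it, with adjusted p of 0.0325 with the block and 0.394 without.

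Sense genes as a group did not gain with their antisense RNAs. Of the 240 tested, 2 rose with ODD, 1 with EVEN and 2 with LacZ, and 1 fell in each comparison. These are 0.833%, 0.417% and 0.833% higher and 0.417% lower in each, where 6.38%, 5.28% and 6.89% of all genes rose and 0.369%, 0.26% and 0.418% fell. Rbm25, a splicing factor gene facing Gm29361, rose in all 3 from 150.0 and 190.0 CPM in Input to between 275.0 and 338 CPM in the pull-downs. Nrxn2, a presynaptic adhesion gene facing Gm14964, fell in EVEN and LacZ, where it stood between 120.0 and 135 CPM against 203 and 197 CPM in Input. Pcdhga10, a clustered protocadherin gene facing BC037039, rose in ODD and LacZ, and Gsk3a, the glycogen synthase kinase alpha gene facing 9130221H12Rik, fell in ODD. With the block 9, 12 and 9 sense genes rose and 25, 21 and 25 fell in ODD, EVEN and LacZ, or 10.4%, 8.75% and 10.4% lower against 6.78%, 6.78% and 7.27% of all genes. The shares higher were 3.75%, 5.0% and 3.75% against 12.6%, 13.2% and 12.9%.

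The difference between antisense and sense gain was tested itself, as the change over Input of the ratio of antisense to sense counts within a library. The fit ran over 1682 pairs of genes on opposite strands in which both genes passed the filter, of which 243 held a member and its sense gene. The antisense gain was higher in 1 member pair (0.412%) with ODD, none with EVEN and 1 with LacZ, where 0.178%, 0.119% and 0.654% of all pairs were higher, and in no member pair was it lower. At an unadjusted p under 0.05 stood 47 member pairs with ODD, 49 with EVEN and 47 with LacZ. Over all 1682 pairs these numbers were 207, 220 and 194. The pair that passed was Gm38336 and Arhgef4 in both comparisons, with a difference of 2.53 ± 0.34 with ODD, 2.41 ± 0.34 with EVEN and 2.51 ± 0.35 with LacZ (log2, SE) and adjusted p of 0.0449, 0.0532 and 0.0325 in edgeR's test. No member pair passed when any 1 of the 8 libraries was left out.

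With the replicate block on the ratio, the antisense gain was higher in 21 member pairs (8.64%) in ODD, 23 (9.47%) in EVEN and 27 (11.1%) in LacZ, where 5.53%, 6.3% and 6.54% of all pairs were higher. It was lower in 3, 4 and 3 member pairs, where 2.79%, 3.21% and 3.03% of all pairs were lower. In 18 member pairs it was higher in all 3 pull-downs, a description only, without a share over all pairs beside it. The median difference over the 243 member pairs, from the fit without the block, was 0.29 with ODD, 0.21 with EVEN and 0.24 with LacZ, beside 0.09, 0.08 and 0.08 over all 1682 pairs. The same median among member pairs that share no exonic bases was near 0 in ODD, at -0.0001, with 0.05 in EVEN and 0.15 in LacZ. Among the 139 member pairs whose antisense RNA had both Input libraries above the floor, these medians were 0.11, 0.04 and 0.15. Among the 104 pairs that entered through pull-down libraries they were 0.47, 0.44 and 0.45. The excess of the median over that of all pairs thus lay largely in members whose gain the filter favours. The pairs called higher with the block were spread over both kinds. They were 12, 14 and 15 of the 139 pairs and 9, 9 and 12 of the 104 in ODD, EVEN and LacZ. The difference was above 0 in 158, 153 and 159 of 243 member pairs and in 796, 797 and 791 of the other 1439 pairs. Across the member pairs, which share their libraries, Pearson's r between antisense and sense gain was 0.03, -0.05 and -0.02, a description only.

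**Figure D2:**
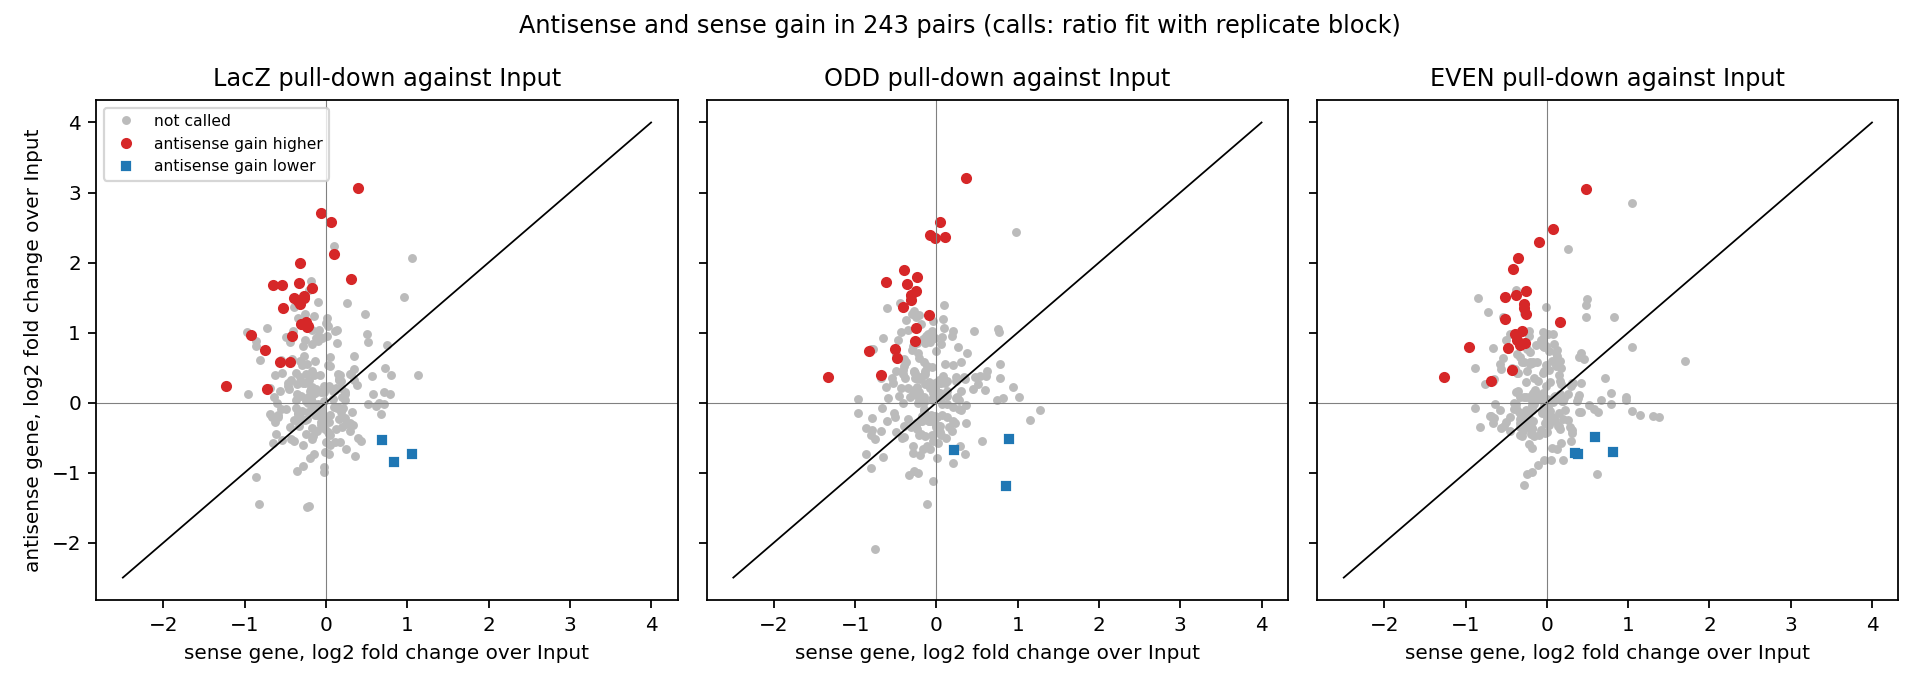
Log2 fold change over Input of the antisense RNA (y axis) against that of its sense gene (x axis) for 243 pairs in the LacZ, ODD and EVEN pull-downs, with the line of equal gain. Red points are pairs whose antisense gain was higher in the ratio fit with the replicate block (27, 21 and 23 pairs) and blue squares those whose gain was lower (3, 3 and 4), and most red points lie above 0 for the antisense RNA and at or below 0 for the sense gene.

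In some of these pairs the sense gene fell while the antisense RNA did not pass. For Gm45774, head-to-head with the metallothionein gene Mt2, the antisense RNA was at 1.81 and 2.58 CPM in Input and at 2.35 to 3.22 CPM in the pull-downs. Mt2 fell with the block in all 3 comparisons, from 23.2 and 29.8 CPM in Input to 7.55 to 14.5 CPM. The same held for 9430041J12Rik and Ttyh1, a glial and progenitor membrane protein gene, at 592 and 189 CPM in Input and 353 and 135 CPM in ODD. Ttyh1 was higher in replicate 1 of every group, as were the glial markers, whose part in the result was not tested.

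In other pairs the antisense RNA rose with the block, with or without a fall of the sense gene. Gm5577, tail-to-tail with Rab7, the late endosome GTPase gene, had 1.44 and 3.65 CPM in Input and 4.26 to 12.5 CPM in the pull-downs. With the block it rose in all 3 and Rab7 fell in all 3, from 259 and 306 CPM to between 160.5 and 200 CPM. Rab10os and Rab10, a GTPase gene of exocytic transport, moved alike: Rab10os stood at 16.4 and 20.6 CPM in Input and 22.1 to 35.6 CPM in the pull-downs, and Rab10 at 258 and 293 CPM against 183 to 226 CPM. Rab10os rose with the block in ODD and LacZ and had an adjusted p of 0.0575 in EVEN, and Rab10 fell in all 3. 1600020E01Rik, head-to-head with the RNA-binding protein gene Pcbp1, rose with the block in ODD and EVEN, while Pcbp1 fell in all 3. B230334C09Rik, tail-to-tail with Lrrc40, had 9.64 and 15.3 CPM in Input and 16.5 to 48.2 CPM in the pull-downs, with replicate 2 the higher in every group, and rose with the block in all 3 while Lrrc40 did not pass.

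Fewer pairs had a lower antisense gain, and 2 of them are given as examples, chosen after their values were seen. Gm20387, head-to-head with the metabotropic glutamate receptor gene Grm7, was at 0.824 and 2.24 CPM in Input and 0.387 to 1.22 CPM in the pull-downs, and its difference from Grm7 of -1.92 in ODD and -1.61 in LacZ passed with the block. Gm2990 is head-to-head with Chat, the choline acetyltransferase gene of motor neurons, and both were higher in replicate 2 of every group. Gm2990 was at 3.63 and 11.1 CPM in Input and 2.71 and 7.22 CPM in LacZ, Chat at 12.8 and 36.5 CPM in Input and 21.1 and 58.0 CPM in LacZ. Chat rose with the block in all 3 pull-downs and Gm2990 passed in none, and the difference passed with the block in LacZ, at -1.21. A list of 35 members facing genes of synapses, channels, adhesion or axon guidance was built from sense gene symbols and does not include Chat. Of its 19 tested members 0 were called in edgeR's test without the block, and the 1 that rose with it in each comparison was B230334C09Rik, whose sense gene Lrrc40 entered by its symbol alone. The shares of all genes that rose were 6.38%, 5.28% and 6.89% without the block and 12.6%, 13.2% and 12.9% with it. In the ratio fit with the block, 1 of the list's 18 pairs had a higher and 2 had a lower antisense gain in each comparison. The medians of the list were 0.04 with ODD, -0.28 with EVEN and 0.12 with LacZ, beside -0.03, -0.00 and -0.05 over all genes tested.

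The order of the position classes by median gain differed between the pull-downs. The 121 tested head-to-head members had medians of 0.18, 0.04 and 0.12 for ODD, EVEN and LacZ, and the 71 inside had 0.13, 0.26 and 0.22. The 63 tail-to-tail members had 0.22, 0.01 and 0.05 in the same order, so they were above the inside class with ODD and below it with EVEN and LacZ. The 19 spanning members had 0.37, 0.26 and 0.24, and the 19 without a coding gene opposite had -0.03, 0.02 and 0.15. Called without the block in at least 1 comparison were 2 head-to-head, 3 inside, 3 tail-to-tail, 1 spanning and 1 without a partner. With the block, 8, 10, 12, 5 and 3 members of these classes rose in at least 1 comparison. These counts by class have no share over all genes beside them and are a description only. Where exons of both strands faced each other (227 tested) the medians were 0.20, 0.07 and 0.15, and where they did not (47 tested) they were 0.06, 0.08 and 0.12, so that order also turned with EVEN. The 17 tested members under 1% of their sense gene's FPKM had medians of 0.93, 0.67 and 0.95 in ODD, EVEN and LacZ, and the 53 above their sense gene had 0.01, -0.06 and -0.01. Members of the first kind are low in Input and passed the filter mostly through pull-downs, so this contrast is partly set by the filter.

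Noncoding genes were also divided by class and by whether they share their strand with a coding gene. This division was made after the values were seen, and the differences between classes were not tested. The 266 tested members that overlap coding genes on the opposite strand only had medians of 0.18 with ODD, 0.07 with EVEN and 0.15 with LacZ. Genes of the provisional TEC class that overlap a coding gene on its own strand (1087 tested) had medians of 2.93, 2.68 and 3.04. TEC genes opposite to a coding gene only (73 tested) had 0.48, 0.27 and 0.62, and those that overlap no coding gene (183 tested) had 1.29, 1.16 and 1.32. Sense-intronic RNAs on the coding strand (147 tested) had 2.34, 2.23 and 2.38. Same-strand lincRNAs (18 tested) had 0.56, 0.48 and 0.61, and the 310 lincRNAs that overlap no coding gene had 0.32, 0.28 and 0.33. Same-strand processed pseudogenes (124 tested) had 2.14, 1.94 and 2.25, and the 222 that overlap no coding gene had 0.335, 0.364 and 0.801. Same-strand processed transcripts (23 tested) had 1.21, 1.02 and 1.06, and the 99 that overlap no coding gene had 0.138, 0.187 and 0.171. Within TEC genes, lincRNAs, processed pseudogenes and processed transcripts, the same-strand median was above that of genes off coding genes in each pull-down. Among genes with both Input libraries above the floor the same medians in ODD were 0.05 for 152 members, 1.69 for 196 same-strand TEC genes, 0.13 for 39 opposite-strand TEC genes and 1.26 for 30 sense-intronic RNAs. Processed pseudogenes there had 0.26 on the coding strand (15) and 0.0913 off coding genes (108). Processed transcripts there had 0.453 (12) and 0.0814 (78) in the same order.

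Antisense members themselves could be divided this way, since 24 of them also overlap a coding gene on their own strand. The 11 tested ones had medians of 0.71 with ODD, 0.99 with EVEN and 1.13 with LacZ, with a range in ODD from -0.61 to 3.60. Gm49685 with Cdh12, Gm15941 with Ncald and Gm15802 with the adhesion gene Igsf11 were the highest. Flicr, which shares its strand with the regulatory T cell factor gene Foxp3, was the lowest in ODD and EVEN, at 0.865 and 1.07 CPM in Input and 0.254 to 1.03 CPM in the pull-downs, and did not pass. Of the 8 tested members that overlap coding genes on both strands, 3 had both Input libraries above the floor. Their medians were -0.331 with ODD, -0.131 with EVEN and 0.124 with LacZ. A gain of members that passed the filter through pull-down libraries is partly built into the filter. Reads from a same-strand coding gene cannot be told apart from reads of the antisense RNA where the 2 overlap.

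**Figure D3:**
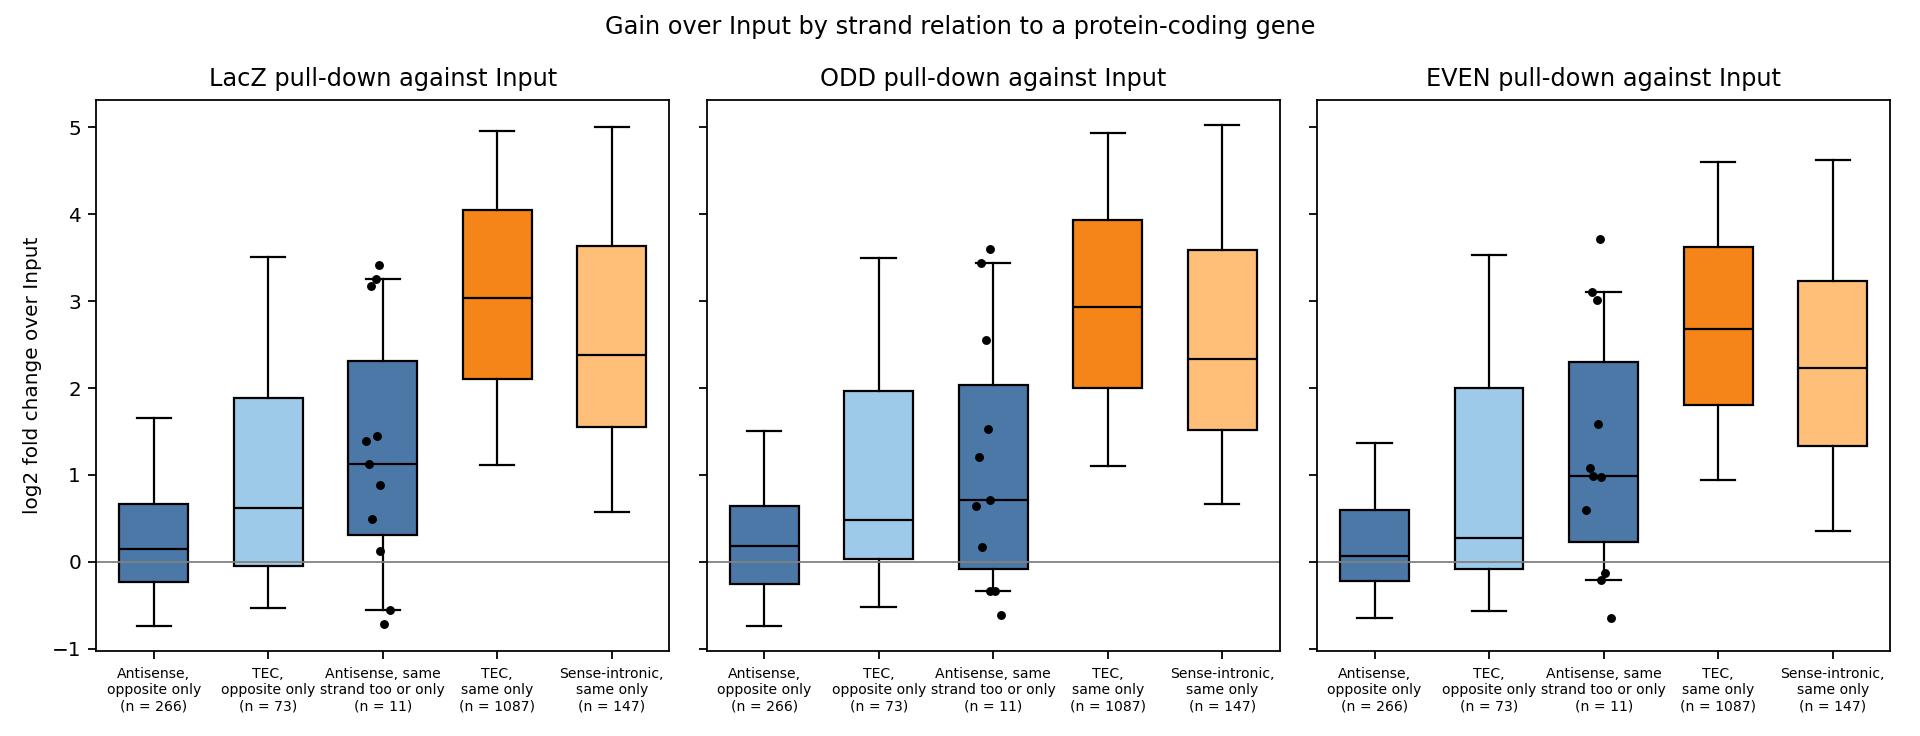
Log2 fold change over Input (y axis) by strand relation to a coding gene in the LacZ, ODD and EVEN pull-downs. Boxes give the quartiles and median, whiskers the 5th to 95th percentile, and points the 11 antisense members on the strand of a coding gene. Opposite-strand antisense members (266) have medians of 0.15, 0.18 and 0.07, below the same-strand TEC genes (1087) at 3.04, 2.93 and 2.68. Gains of genes that passed the filter through pull-down libraries are partly built into the filter.

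Antisense RNAs of developmental transcription factor genes had fitted changes in both directions. The list, built from sense gene symbols, holds 19 members whose sense gene is a homeobox or other developmental factor, and 12 of them were tested. None of the 12 was called against Input in edgeR's test, where 6.38%, 5.28% and 6.89% of all genes rose with ODD, EVEN and LacZ. With the block 1 of the 12 rose in each comparison, where 12.6%, 13.2% and 12.9% of all genes rose. Their fitted changes ran from -0.94 to 1.42 with ODD, -0.37 to 1.23 with EVEN and -1.06 to 1.07 with LacZ. Their medians were 0.08 with ODD, 0.13 with EVEN and 0.00 with LacZ, beside -0.03, -0.00 and -0.05 for all genes tested. The member that rose with the block was Hoxb3os, tail-to-tail with Hoxb3, a positional identity gene of the hindbrain and anterior spinal cord, at chr11:96343072-96354691 on the minus strand. Its level was 2.64 and 4.04 CPM in Input, 6.19 and 7.83 with the LacZ probes, 5.15 and 7.11 with ODD, and 5.92 and 6.11 with EVEN, with every pull-down library above Input. The gain was 0.88 ± 0.32 with ODD, 0.85 ± 0.32 with EVEN and 1.08 ± 0.32 with LacZ, with edgeR adjusted p of 0.196, 0.21 and 0.11, and of 0.0264, 0.0279 and 0.0114 with the block. Hoxb3 was between 144 and 191 CPM in every library, and the difference from Hoxb3 passed with the block in all 3, at 1.15, 1.15 and 1.33.

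Hoxb5os, opposite Hoxb6, was higher in replicate 1 of each group, at 5.73 and 4.92 CPM in Input, 7.48 and 1.92 with the LacZ probes, 7.88 and 3.27 with ODD, and 9.56 and 2.07 with EVEN. Hoxaas3, named for the Hoxa cluster but not in the list because its largest overlap is with Gm28308, ran from 2.96 to 7.40 CPM over the 8 libraries. No gain of either RNA passed with or without the block.

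The other RNAs named for such factor genes were less abundant or tied to a far more abundant sense gene. Zeb2os, known as the natural antisense RNA of the Zeb2 repressor gene, was at 3.38 and 4.87 CPM in Input and 2.00 to 5.41 CPM in the pull-downs, beside Zeb2 at 261 to 299 CPM. Dlx6os1, known as Evf2 in forebrain interneurons, was at 1.90 and 1.75 CPM in Input and 1.42 to 3.31 CPM in the pull-downs, and its FPKM in Input was 211% of that of Dlx6. Hoxd3os1 and Irx3os stayed between 0.435 and 1.53 CPM. Nkx2-2os, head-to-head with the progenitor factor gene Nkx2-2, had 1 to 5 counts per library. Dlx1as, whose annotated overlap is with Metap1d, had 1 to 12, Evx1os 1 to 5 and Emx2os 2 to 5, and these last 4 did not pass the filter.

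**Figure D4:**
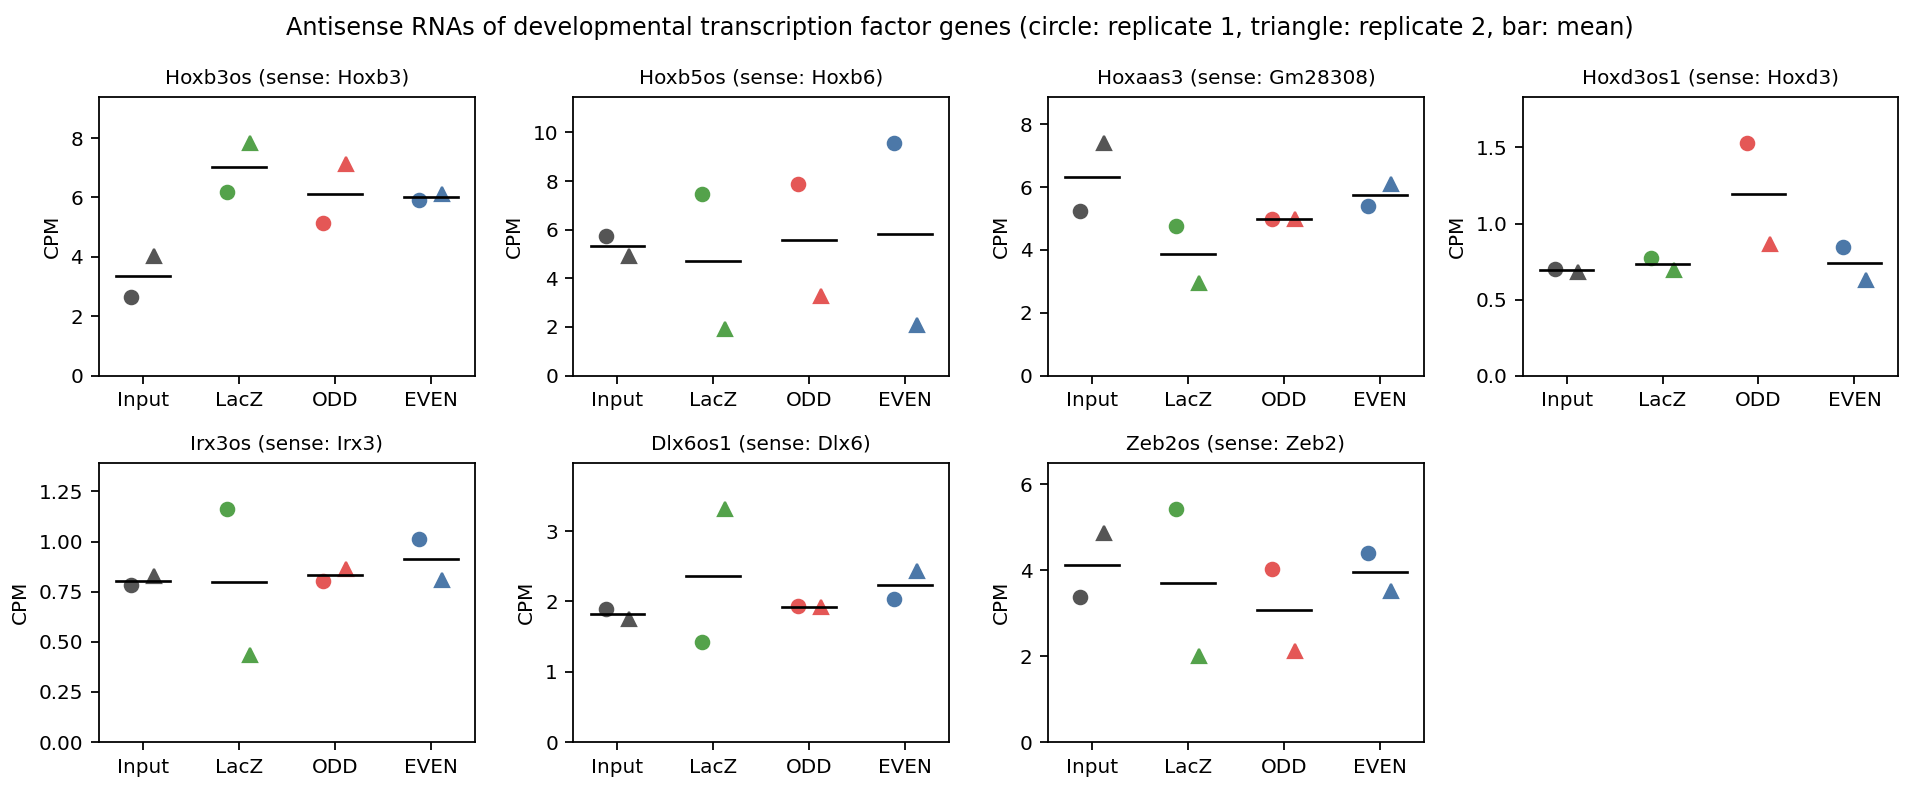
Level in CPM (y axes, each from 0) of 7 antisense RNAs of developmental transcription factor loci by group, with 1 point per library (circle, replicate 1; triangle, replicate 2) and the mean as a bar. Hoxb3os lies above Input in all 6 pull-down libraries, and each of the other 6 has at least 1 pull-down library at or below its higher Input library.

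The most abundant members other than Tug1 mostly lay near Input. Brip1os was at 88.1 and 59.9 CPM in Input and 58.2 to 71.4 CPM in the pull-downs. 1700052K11Rik, head-to-head with the kinase gene Tlk2, was at 29.8 and 32.0 CPM in Input and 25.5 to 30.6 CPM in the pull-downs. 4933431E20Rik, 1110002L01Rik and Gm16536 were likewise not called with or without the block. 1110002L01Rik faces the kinesin gene Kif3c and Gm16536 lies inside Bace1, which fell with the block in all 3 comparisons, from 114 and 68.2 CPM in Input to 49.0 to 71.1 CPM. E130307A14Rik, tail-to-tail with the adaptor gene Traf3ip2, was the exception: at 21.5 and 21.2 CPM in Input, 31.8 and 43.0 with the LacZ probes, 56.2 and 36.4 with ODD, and 42.3 and 33.5 with EVEN, it rose with the block in all 3. Without the block its gain of 1.12 ± 0.27 in ODD had an adjusted p of 0.0581 in edgeR's test. C130021I20Rik, which has no coding gene opposite, followed the experiment, at 14.0 and 29.0 CPM in Input and 12.1 to 13.4 CPM in replicate 1 and 34.2 to 39.3 CPM in replicate 2 of the pull-downs.

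A few antisense RNAs belonged to 1 of the experiments. In all 4 groups Gm26588, head-to-head with the monoglyceride lipase gene Mgll, and 9630013A20Rik, inside the protocadherin gene Pcdh17, were more than 4 times higher in replicate 1, and Gm44000, inside Klrb1f, in replicate 2. Over all genes tested 51 differed this way in every group. 9630013A20Rik had 93, 40, 38 and 35 counts in replicate 1 of Input, LacZ, ODD and EVEN, and 4, 2, 0 and 1 in replicate 2. Pcdh17 had 2571 and 1533 counts in Input, so it differed less between experiments than its antisense RNA. Gm26588 had 46 and 1 counts in Input where Mgll had 431 and 69, and Gm44000 had 9 and 50. Glial markers were higher in replicate 1 and motor neuron markers in replicate 2, and their part in these differences was not tested.

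Against the LacZ probes no antisense RNA was called. For ODD, EVEN and their mean against LacZ, 0 of 293 members and 0 of 16524 genes (0.0%) passed in edgeR's test in either direction, Lhx1os included. Lhx1os, the captured RNA, had fitted differences from LacZ of 5.569 with ODD and 5.265 with EVEN (log2) and still did not pass. The absence of calls thus does not show that no member differed from LacZ. At an unadjusted p under 0.05 stood 4, 5 and 4 members. Over all genes tested these numbers were 166, 279 and 216. With the block no gene passed, and with DESeq2 0 members passed, with 1, 12 and 2 genes of all tested higher. The 3 members with the smallest p for the mean of ODD and EVEN were all lower there than in LacZ. Gm48780, inside the arginase gene Arg2, had 15 and 15 counts in LacZ, 7 and 8 with ODD, and 9 and 7 with EVEN, a fitted difference of -1.23 ± 0.38. Gm15983, head-to-head with Eef2kmt, had 11 and 11 counts in LacZ, 6 and 6 with ODD, and 5 and 5 with EVEN, a difference of -1.27 ± 0.41. A430027H14Rik, inside the potassium channel gene Kcnk2, had 15 and 32 with the LacZ probes, 19 and 18 with ODD, and 12 and 12 with EVEN, a difference of -0.86 ± 0.30. These unadjusted p-values, 0.0138, 0.0171 and 0.0249 in edgeR's test, all had an adjusted p of 1.0. On the CPM scale both LacZ libraries lay above all 4 ODD and EVEN libraries for each of the 3. Gm48780, for example, was at 1.93 and 1.31 CPM in LacZ and at most 0.769 CPM in ODD and EVEN, and at 0.453 and 0.536 CPM in Input.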

How the data were processed

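RNA-seq counts per gene were analysed for 8 libraries: Input and the LacZ, ODD and EVEN pull-downs, 2 replicates each. The deposited tables hold the authors' raw counts per gene, and per the submitters' processing notes cutadapt 3.2, Bowtie2 2.4.2, Picard and HTSeq 0.13.5 were used with the GRCm38 build. No source used here states the strand setting or the annotation used for counting. Of 55471 gene identifiers 55144 matched GENCODE M21, and the rest held 0.042% to 0.0712% of a library's counts.

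Tests on these counts used edgeR 4.0.16, run in R 4.3.3 (quasi-likelihood, robust, TMM scaling, the edgeR filter by group, 16524 genes, all 8 libraries in 1 fit, two-sided, Benjamini-Hochberg adjustment over all genes). Antisense minus sense gain was tested in edgeR on 16 columns, 2 per library, with a term for each library. FPKM are the authors' deposited values per gene. CPM were computed from the deposited counts over the summed counts of the tested genes, scaled by the TMM factor. Only the check of Input against the filter's floor used column totals. Alternatives were the replicate block, DESeq2 1.42.0, limma 3.58.1 for the ratio, other scalings and filters, and leaving out each library. In the labels the replicate number stands as the batch, the series text names 2 independent experiments, and deviations of same-numbered libraries from their group means correlated at 0.517 to 0.719 in all 6 pairs of groups, so the number pairs the libraries. Both replicates of a group come from 1 cell line, so p-values without the block measure the spread between these experiments. Those with the block measure the spread left after the common difference between the experiments is removed.

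The members and lists were chosen with earlier results of these data known. Named members were those called in all 3 comparisons, those lower in any, the 8 most abundant in Input, those named for developmental factor genes, and the 3 with the smallest p against LacZ. 1 member that this rule names is not reported here. The pair rule required a call in all 3 comparisons and named none without the block, so pairs named with the block, members called in 1 or 2 comparisons, those with the largest gain and those tied to 1 experiment were chosen after their values were seen. Both fits were tested on simulated data.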

Additional observations from a re-analysis of the deposited data

How the results depend on the processing

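With 2 libraries a group, the number of antisense RNAs called depended on the settings, while no alternative gave a member past the threshold against LacZ. With the replicate number as a block, members higher than Input numbered 25 with ODD, 26 with EVEN and 29 with LacZ and members lower 2, 1 and 1. The paired fit also gave 9, 12 and 9 sense genes higher and 25, 21 and 25 lower, and 21, 23 and 27 pairs with a higher and 3, 4 and 3 with a lower antisense gain. DESeq2 called 11 members higher and 1 lower in ODD and 9 higher and 1 lower in EVEN, with 6 sense genes lower in ODD, 4 higher and 6 lower in EVEN, and 4 higher and 7 lower in LacZ. Without a filter 12 members were higher in ODD, and 9 higher and 1 lower in EVEN, with sense genes at 0 higher and 5 lower in ODD, 2 higher and 3 lower in EVEN, and 7 lower in LacZ. Asking for 50 counts in 2 libraries left 2 members higher in each of ODD, EVEN and LacZ, 1 sense gene higher in ODD and 1 in LacZ, and 0 lower in all 3. Scaling by total library size left 1 sense gene higher and 0 lower in ODD and 0 lower in LacZ. Among pairs sharing no exonic bases, 0 passed in ODD or LacZ and the median difference in ODD was -0.0001, and limma on the log2 ratio of CPM with either offset called 0 in ODD and LacZ. Calls over all genes moved too, from 1055 higher and 61 lower of 16524 in ODD and 873 and 43 in EVEN. DESeq2 gave 1348 higher and 212 lower in ODD and 1244 and 208 in EVEN. Without a filter 1550 of 28192 genes were higher in ODD and 1407 in EVEN. With 50 counts in 2 libraries 511, 469 and 534 of 13320 genes were higher in ODD, EVEN and LacZ. The cause of these shifts was not tested. A minimum of 50 counts over the libraries would leave 343 members, and 20 counts in Input alone 323.

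Leaving out 1 library gave 0 to 4 members higher with ODD, 0 to 3 with EVEN and 0 to 4 with LacZ, 0 lower, and 0 against LacZ. It gave 0 to 1 sense genes higher with ODD, 0 to 2 with EVEN and 0 to 1 with LacZ, 0 lower in ODD and EVEN and 0 to 1 in LacZ, and 0 pairs in either direction. The median antisense minus sense gain ran from 0.11 to 0.447 with ODD, 0.059 to 0.425 with EVEN and 0.165 to 0.484 with LacZ. Of the values for single named genes under all alternatives, 532 kept their side of the threshold, 94 no longer passed and 33 newly passed. Many of the 532 had not passed in the main fit, so the total does not show that the calls were stable. For genes called in no comparison only the number of calls was followed, not the direction. Low counts limit what can be seen, since the median member had 76 counts over all 8 libraries.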
